A study of Homo sapiens with 12 samples.

Results

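The replicative DNA polymerases and primase were examined through the transcripts of 10 genes, which were taken by name: POLA1, POLA2, PRIM1 and PRIM2 of the DNA polymerase alpha-primase complex, POLD1, POLD2 and POLD3 of polymerase delta, and POLE, POLE2 and POLE3 of polymerase epsilon. All 10 were found among the 58233 genes of the deposited table, and all 10 passed the filter on low counts, which left 16657 genes for testing. This list was chosen with earlier results of these data known. POLD4 and POLE4, the remaining subunits of polymerases delta and epsilon, are outside it and are described separately.

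The series consists of 12 poly-A RNA-sequencing libraries from HCT116, a human colorectal carcinoma cell line, in 4 conditions with 3 libraries each. The parental line, HCT116 Tet-OsTIR1, carries the rice F-box protein TIR1 on both AAVS1 alleles, behind a promoter that tetracyclines switch on. The SDS22-degron line was made from it by editing PPP1R7, the gene of SDS22, so that endogenous SDS22 is fused to an auxin-inducible degron (mAID) and the fluorescent protein mClover, and was grown from isolated colonies. Both lines thus carry the TIR1 transgene, and each was either untreated or kept for 48 h in 2 µg/ml doxycycline, which turns on TIR1, and 500 µM IAA, the auxin that directs TIR1 to the degron (Dox/IAA). The label of the SDS22-degron genotype reads HCT116 Tet-OsTIR1 SDS22 WT, and the 3 libraries of a condition come from 3 independent experiments. No library received Dox or IAA alone, so the 2 agents cannot be told apart here.

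DNA replication divides its work among 3 polymerases of the B family. Polymerase alpha-primase lays down short RNA-DNA primers, polymerase epsilon travels with the replicative helicase and extends the leading strand, and polymerase delta, held by the sliding clamp PCNA, extends the Okazaki fragments of the lagging strand. In cycling cells, many genes of this machinery are transcribed around the G1/S transition under E2F transcription factors.

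The sequence just upstream of the start sites is shown for 6 genes, to set the polymerase genes with an E2F-type word beside a gene without one and beside POLE4, which holds one. Start sites were taken from RefSeq on GRCh38.p14, where 9 of the 10 genes had an entry. POLD3 had none. The searched window ran from 250 bases before to 50 bases after the start. Of each window, 150 bases are printed 5′ to 3′ on the strand of the gene, from 140 bases before the start through its first 10 bases, and capitals mark an E2F-type word (TTTGGCGC, TTTCCCGC, TTTGCCGC or TTTCGCGC on either strand). The stretches are chrX:24693778-24693927 (plus strand) for POLA1, chr11:65261822-65261971 (plus strand) for POLA2, chr12:132687333-132687482 (minus strand) for POLE, chr14:49688205-49688354 (minus strand) for POLE2, chr2:74958503-74958652 (plus strand) for POLE4 and chr7:44123539-44123688 (minus strand) for POLD2.
POLA1: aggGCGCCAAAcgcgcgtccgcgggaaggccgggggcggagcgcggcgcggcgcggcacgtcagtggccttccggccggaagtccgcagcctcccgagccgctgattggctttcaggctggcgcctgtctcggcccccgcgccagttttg
POLA2: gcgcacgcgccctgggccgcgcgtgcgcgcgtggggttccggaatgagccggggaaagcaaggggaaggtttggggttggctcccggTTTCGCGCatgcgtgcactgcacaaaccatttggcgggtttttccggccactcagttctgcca
POLE: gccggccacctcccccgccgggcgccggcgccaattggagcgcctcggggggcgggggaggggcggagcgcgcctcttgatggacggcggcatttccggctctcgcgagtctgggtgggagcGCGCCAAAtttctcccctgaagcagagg
POLE2: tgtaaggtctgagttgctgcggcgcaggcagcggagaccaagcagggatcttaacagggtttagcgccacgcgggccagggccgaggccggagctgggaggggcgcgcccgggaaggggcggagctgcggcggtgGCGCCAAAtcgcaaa
POLE4: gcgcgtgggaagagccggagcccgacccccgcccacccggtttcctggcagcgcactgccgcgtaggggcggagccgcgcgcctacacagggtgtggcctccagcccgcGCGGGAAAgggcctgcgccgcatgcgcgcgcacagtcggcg
POLD2: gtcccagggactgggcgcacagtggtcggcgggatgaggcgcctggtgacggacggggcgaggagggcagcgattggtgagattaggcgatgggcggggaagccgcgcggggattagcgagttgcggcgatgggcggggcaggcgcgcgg

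The word lay at bases -137 to -130 in POLA1, -53 to -46 in POLA2, -18 to -11 in POLE and -5 to 3 in POLE2, counted from 1 at the first transcribed base and with no base 0. It was thus found in 4 of the 9 genes with an entry, and in 4 of their 13 windows. By comparison, 3.32% of all 35116 windows and 4.84% of the 14677 windows of tested genes held it. POLE4 held the word at bases -31 to -24. Each further word was also searched on both strands. CCAAT was found in 4 of the 13 windows (4 genes), against 34.6% of all windows and 34.4% of those of tested genes. The GC box GGGCGG was in 8 of the 13 windows (6 genes), against 44.95% and 66.6%. The CHR words TTTGAA and TTCGAA were in 1 of the 13 windows (1 gene, POLE3), against 16.4% and 11.6%. TATAAA was in 0 of the 13 windows, against 11.5% and 5.97%. These matches describe letters only and do not show that a factor was bound there.

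By position on GRCh38, as given in the deposited table, the 10 genes lie on 8 chromosomes: POLA1 at chrX:24693919-24996986, POLA2 at chr11:65261762-65305589, PRIM1 at chr12:56731596-56752373, PRIM2 at chr6:57314805-57646849, POLD1 at chr19:50384204-50418018, POLD2 at chr7:44114681-44124358, POLD3 at chr11:74493851-74669117, POLE at chr12:132623753-132687365, POLE2 at chr14:49643555-49688422 and POLE3 at chr9:113407235-113410672. Each span is that of the whole gene with its exons and introns, and the strand is minus for PRIM1, POLD2, POLE, POLE2 and POLE3 and plus for the others.

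The libraries held 12133915 to 14657508 reads assigned to genes. Levels are given as CPM, the reads of a gene scaled to a common library total and normalized with the TMM method, whose factors lay between 0.971 and 1.03. PPP1R7 itself stood at 40.0 to 47.6 CPM in untreated parental cells, 42.0 to 49.9 CPM in treated parental cells, 40.6 to 45.7 CPM in untreated SDS22-degron cells and 44.3 to 51.1 CPM in treated SDS22-degron cells. The degron acts on the protein, so these transcript levels do not check its removal. The 5 epithelial markers (EPCAM, KRT8, KRT18, KRT19 and CDH1) were detected in every library, at 66.9 CPM or more. Of 7 markers of other cell types, PTPRC, PECAM1, GFAP and ALB had at most 4 counts per library, CD3E and COL1A2 had 0 counts in every library, which allows up to 3 counts by counting error alone, and COL1A1 stood at 9.86 to 31.7 CPM.

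In cells with the SDS22 degron, Dox/IAA lowered the transcripts of all 10 polymerase and primase genes. Their median log2 fold change was -0.96 (range -1.33 to -0.62), against 0.00 for all tested genes. Each of the 10 passed the test in the quasi-likelihood model (adjusted p under 0.05), and in each the 3 treated libraries lay below the 3 untreated ones. Among all tested genes, 25.5% were lower and 26.0% higher at the same threshold, and 29.7% had all 3 treated libraries below the untreated ones. POLD4 and POLE4, the 2 subunits outside the list, were both higher with Dox/IAA in these cells, though the call of POLE4 was lost in 11 of 23 alternatives. In parental cells, the same treatment lowered 5 of the 10 genes, and by smaller amounts, beside 15.7% of all tested genes. The count of 5 ranged from 3 to 7 with 1 library left out, and that of all tested genes lower from 1962 to 2614. RNA was taken from whole cultures, in which fewer cells in S phase and less RNA per cell cannot be told apart.

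**Figure D1:**
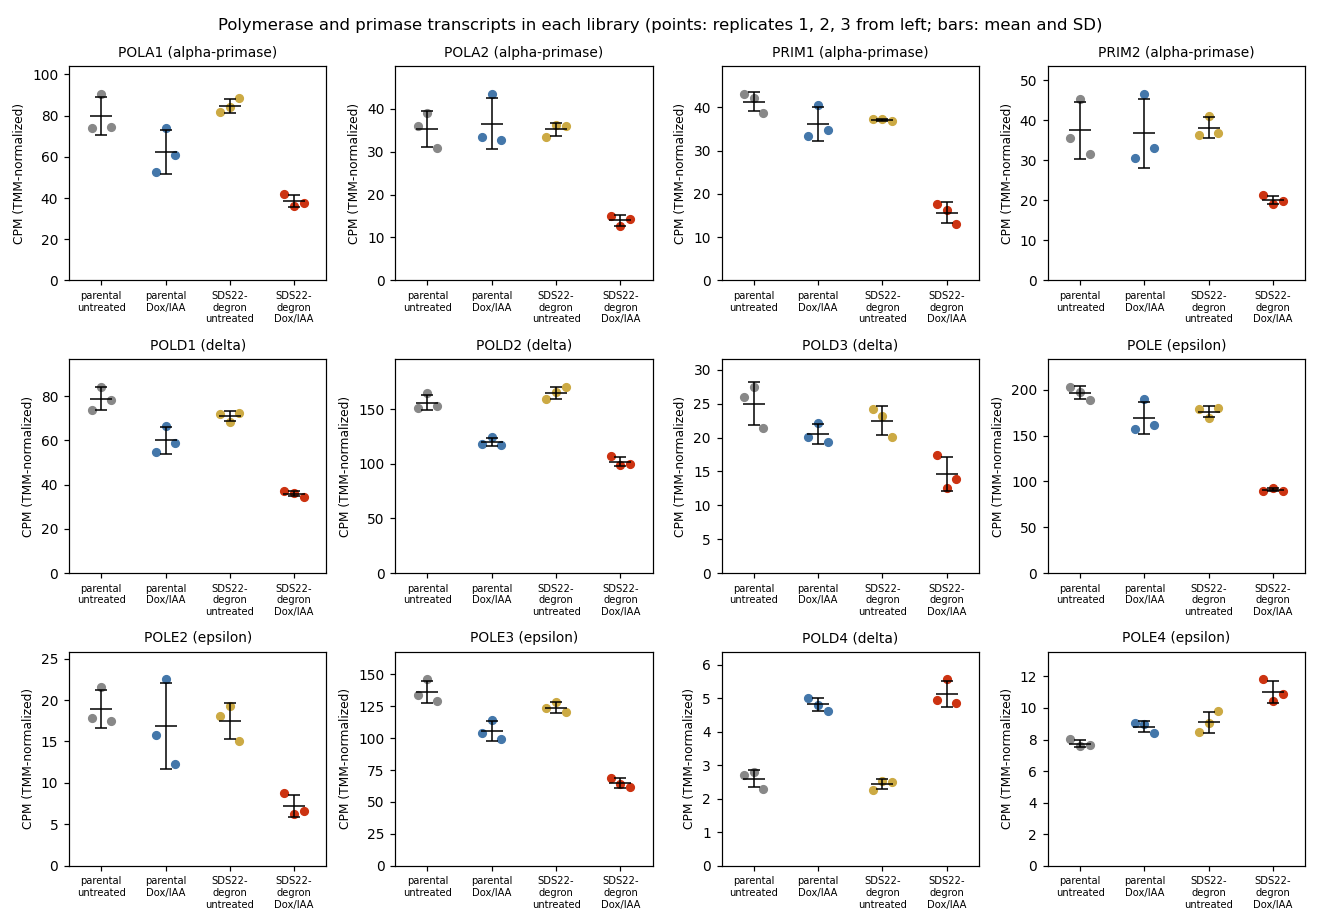
TMM-normalized CPM (vertical axes, from 0) of the 10 polymerase and primase genes and of POLD4 and POLE4 in each library; points are replicates 1 to 3 from left to right in each condition, and bars give the mean and SD (n = 3). For each of the 10 genes, the treated SDS22-degron libraries lie below those of the other conditions, whereas POLD4 is higher in treated cells of both lines.

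POLA1 is the catalytic subunit of polymerase alpha. It stood at 74.0, 90.3 and 74.6 CPM in untreated parental cells (replicates 1, 2 and 3, as below), at 52.9, 74.0 and 60.8 CPM in treated parental cells, at 81.8, 84.1 and 88.3 CPM in untreated SDS22-degron cells and at 42.0, 36.1 and 37.8 CPM in treated SDS22-degron cells. All treated SDS22-degron libraries were thus below all others, and the highest treated parental library was level with the lowest untreated one. The log2 fold change with Dox/IAA was -1.13 (SE 0.107, adjusted p = 1.0e-07) in SDS22-degron cells, a level of 45.7% of the untreated cells, and -0.35 (SE 0.104, adjusted p = 0.0154) in parental cells.

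POLA2 is the regulatory B subunit of polymerase alpha. It stood at 36.0, 39.0 and 30.8 CPM in untreated parental cells, at 33.3, 43.3 and 32.7 CPM in treated parental cells, at 33.4, 36.3 and 35.9 CPM in untreated SDS22-degron cells and at 14.9, 12.6 and 14.4 CPM in treated SDS22-degron cells. The first 3 conditions overlapped, and the fourth stood apart from all of them. POLA2 had the lowest ratio of the 10 genes in SDS22-degron cells, where its treated level was 39.7% of the untreated one (log2 fold change -1.33, SE 0.119, adjusted p = 5.8e-08). In parental cells, its log2 fold change was 0.05 (95% CI -0.18 to 0.28, adjusted p = 0.782).

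The primase subunits PRIM1, which synthesizes the RNA part of the primer, and PRIM2, the large subunit with an iron-sulfur cluster, followed a like course. PRIM1 stood at 43.0, 42.2 and 38.8 CPM in untreated parental cells, at 33.3, 40.6 and 34.6 CPM in treated parental cells, at 37.3, 37.2 and 36.8 CPM in untreated SDS22-degron cells and at 17.7, 16.3 and 13 CPM in treated SDS22-degron cells. For PRIM2, the values were 35.7, 45.2 and 31.5 CPM, then 30.6, 46.5 and 33.0 CPM, then 36.3, 41.1 and 36.8 CPM, and finally 21.2, 19.2 and 19.8 CPM in the same conditions. Both were lowest in the treated SDS22-degron libraries, without overlap with any other condition. The treated level there was 42.3% of the untreated level for PRIM1 (log2 fold change -1.24, SE 0.106, adjusted p = 3.1e-08) and 52.7% for PRIM2 (log2 fold change -0.92, SE 0.143, adjusted p = 3.0e-05). In parental cells, the log2 fold changes were -0.19 (95% CI -0.40 to 0.01, adjusted p = 0.148) and -0.03 (95% CI -0.32 to 0.26, adjusted p = 0.887). PRIM1 overlaps NACA on the same strand, which had 43565 counts over all libraries against 5065 for PRIM1, so that its counts depend on how shared reads were assigned. POLA1 contains the pseudogene EEF1B2P3 on the opposite strand, with 39423 counts against 10350, and the strand setting of the counting is not given in the sources used here.

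In polymerase delta, the catalytic subunit POLD1 stood at 73.9, 84.3 and 78.4 CPM in untreated parental cells, at 54.6, 66.7 and 59.0 CPM in treated parental cells, at 71.9, 68.3 and 72.6 CPM in untreated SDS22-degron cells and at 37.1, 36.3 and 34.6 CPM in treated SDS22-degron cells. Treated libraries were below untreated ones in both lines. POLD1 fell to 50.8% of the untreated level in SDS22-degron cells (log2 fold change -0.98, SE 0.0800, adjusted p = 2.0e-08) and to 76.2% in parental cells (log2 fold change -0.39, SE 0.0772, adjusted p = 0.000874).

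POLD2 is the B subunit that joins the catalytic subunit to the accessory ones. It stood at 151, 164 and 153 CPM in untreated parental cells, at 118, 124 and 117 CPM in treated parental cells, at 160, 165 and 170 CPM in untreated SDS22-degron cells and at 107, 99.3 and 99.6 CPM in treated SDS22-degron cells. Treated libraries lay below untreated ones in both lines. The treated level was 61.8% of the untreated one in SDS22-degron cells (log2 fold change -0.69, SE 0.0622, adjusted p = 5.7e-08) and 76.8% in parental cells (log2 fold change -0.38, SE 0.0619, adjusted p = 0.000166). A processed pseudogene, POLD2P1, had 3822 counts against 21147 for POLD2, and reads shared by both cannot be reassigned.

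POLD3, an accessory subunit that binds PCNA, stood at 26.1, 27.5 and 21.4 CPM in untreated parental cells, at 20.1, 22.2 and 19.3 CPM in treated parental cells, at 24.2, 23.2 and 20.1 CPM in untreated SDS22-degron cells and at 17.4, 12.6 and 13.8 CPM in treated SDS22-degron cells. In SDS22-degron cells it fell to 65.0% of the untreated level (log2 fold change -0.62, SE 0.125, adjusted p = 0.000422), the smallest fall of the 10 genes there. In parental cells, where the conditions overlapped, the log2 fold change was -0.28 (SE 0.121, adjusted p = 0.0828). Same-numbered parental libraries varied together, and with the replicate number as a block POLD3 passed the test in parental cells (log2 fold change -0.28, adjusted p = 0.0400). This made 6 of the 10 genes lower there, beside 2986 of all 16657 tested genes. The lincRNA AP001372.2 overlaps POLD3 on the same strand, with 859 counts against 3212.

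POLE, the catalytic subunit of polymerase epsilon, stood at 203, 198 and 189 CPM in untreated parental cells, at 157, 190 and 161 CPM in treated parental cells, at 178, 169 and 181 CPM in untreated SDS22-degron cells and at 89.6, 93.2 and 90.1 CPM in treated SDS22-degron cells. The 3 treated SDS22-degron libraries lay close together and far below the rest. POLE fell to 51.7% of the untreated level in SDS22-degron cells (log2 fold change -0.95, SE 0.0719, adjusted p = 8.7e-09). In parental cells, treated and untreated libraries overlapped by 1 replicate, and the fitted level was 86.1% of the untreated one (log2 fold change -0.22, SE 0.0702, adjusted p = 0.0248).

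POLE2, the B subunit that ties the polymerase to the helicase, was the least abundant of the 10 genes in CPM. It stood at 17.8, 21.6 and 17.4 CPM in untreated parental cells, at 15.8, 22.5 and 12.3 CPM in treated parental cells, at 18.1, 19.2 and 15.1 CPM in untreated SDS22-degron cells and at 8.76, 6.26 and 6.58 CPM in treated SDS22-degron cells. The spread among treated parental libraries was wide, yet none of them came down to the treated SDS22-degron libraries. The treated level was 41.2% of the untreated one in SDS22-degron cells (log2 fold change -1.28, SE 0.190, adjusted p = 1.8e-05), and the log2 fold change was -0.17 in parental cells (95% CI -0.53 to 0.19, adjusted p = 0.483).

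POLE3, a histone-fold subunit that is also part of the chromatin remodeler CHRAC, stood at 134, 146 and 129 CPM in untreated parental cells, at 104, 114 and 99.0 CPM in treated parental cells, at 124, 128 and 120 CPM in untreated SDS22-degron cells and at 68.9, 64.3 and 61.5 CPM in treated SDS22-degron cells. Dox/IAA lowered it in both lines without overlap, to 52.4% in SDS22-degron cells (log2 fold change -0.93, SE 0.0723, adjusted p = 1.1e-08) and to 77.4% in parental cells (log2 fold change -0.37, SE 0.0706, adjusted p = 0.000720).

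In parental cells as a whole, the genes lowered by Dox/IAA were POLA1, POLD1, POLD2, POLE and POLE3, and 0 of the 10 were higher. The median log2 fold change of the 10 genes was -0.25, against 0.00 for all tested genes. Of all tested genes, 15.7% were lower and 15.9% higher at the same threshold (2608 and 2656 genes, but 1958 and 3503 genes when libraries were scaled by their total alone). The libraries of POLA1, POLD1, POLD2 and POLE3 did not overlap, as was the case for 20.2% of all tested genes in this direction. The count of 5 depended on single libraries: it was 3 without untreated parental replicate 2, treated parental replicate 1 or treated parental replicate 3, since POLA1 and POLE no longer passed, 4 without untreated parental replicate 1 and 6 without untreated parental replicate 3. It was 7 without treated parental replicate 2, when PRIM1 (adjusted p = 0.0415) and POLE2 (adjusted p = 0.0366) were lower too. All tested genes lower were 2243 of 16947, 2186 of 16936 and 1962 of 16932 in the fits that gave 3. They were 2268 of 16944 in the fit that gave 4 and 2339 of 16929 in that with 6. In the fit that gave 7, they were 2557 of 16937. POLE also missed the threshold when libraries were scaled by total counts (adjusted p = 0.112), under full-quantile normalization (adjusted p = 0.10) and when only the parental libraries were fitted (adjusted p = 0.0745).

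Whether the effect of Dox/IAA depended on the line was tested as an interaction, that is, the effect in SDS22-degron cells minus the effect in parental cells. It was negative and passed the test for 9 of the 10 genes, with a median of -0.76 against 0.00 for all tested genes. Among all tested genes, 8.35% had a lower and 6.03% a higher interaction at this threshold. The 4 subunits of polymerase alpha-primase had interactions of -0.78 for POLA1 (SE 0.149, adjusted p = 0.00170), -1.38 for POLA2 (SE 0.162, adjusted p = 3.8e-05), -1.05 for PRIM1 (SE 0.144, adjusted p = 0.000123) and -0.89 for PRIM2 (SE 0.198, adjusted p = 0.00535). In polymerase epsilon, they were -0.73 for POLE (SE 0.10, adjusted p = 0.000120), -1.11 for POLE2 (SE 0.256, adjusted p = 0.00686) and -0.56 for POLE3 (SE 0.101, adjusted p = 0.00104).

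In polymerase delta, the interactions were -0.59 for POLD1 (SE 0.111, adjusted p = 0.00167), -0.31 for POLD2 (SE 0.0876, adjusted p = 0.0221) and -0.34 for POLD3 (95% CI -0.70 to 0.03, adjusted p = 0.208). The 95% CI of POLD2 (-0.50 to -0.13) did not overlap that of POLA2 (-1.72 to -1.04), although both rest on the same libraries and the difference between genes was not tested. For POLD2, the call was lost (adjusted p up to 0.0618) without untreated parental replicate 3, treated parental replicate 2, untreated SDS22-degron replicate 2 or 3, or treated SDS22-degron replicate 2. Of the 4 genes whose promoter window held an E2F-type word, POLA1, POLA2, POLE and POLE2, all had an interaction that passed the test, as did the 5 genes with a window but without the word. POLE4, which also holds the word, did not.

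**Figure D2:**
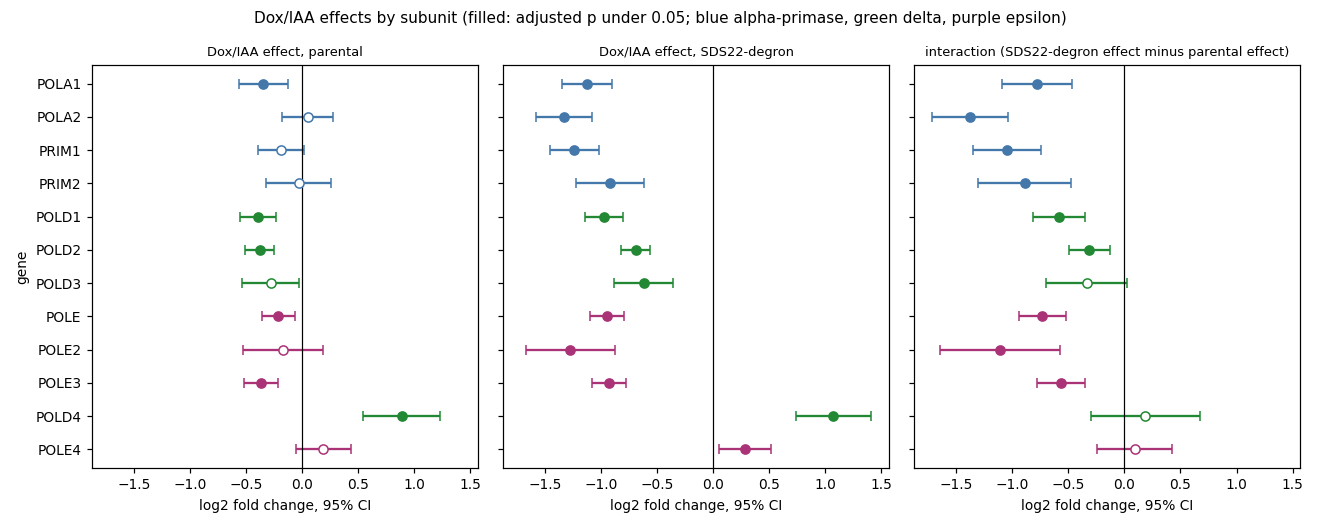
Log2 fold change with Dox/IAA in parental cells (left) and SDS22-degron cells (middle), and the interaction (right), for each subunit gene, with 95% CI; filled points passed the test (adjusted p under 0.05), and colours give the complex. The 10 genes lie between -1.33 and -0.62 in SDS22-degron cells, and in the interaction POLA2 is lowest and POLD2 closest to 0 among these 10.

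Between the treated lines, all 10 genes were lower in SDS22-degron than in parental cells. Their median log2 fold change was -0.80 (range -1.38 to -0.23) against -0.01 for all tested genes. In this comparison, 23.1% of all tested genes were lower and 21.8% higher. In each of the 10 genes the 3 SDS22-degron libraries lay below the 3 parental ones, which was so for 27.2% of all tested genes. POLA2 was at 38.4% (adjusted p = 5.8e-08) and PRIM1 at 43.5% (adjusted p = 7.4e-08) of the level in treated parental cells, whereas POLD2 was at 85.1% (adjusted p = 0.00526) and POLD3 at 71.3% (adjusted p = 0.00414). This comparison shares its libraries with those above and is no separate evidence.

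Between the untreated lines, 0 of the 10 genes passed the quasi-likelihood test of edgeR in either direction, and 0 were lower by DESeq2 or the likelihood ratio test. At an unadjusted p under 0.05, 1 gene was lower. This was POLE, at 89.5% of the level in untreated parental cells (log2 fold change -0.16, 95% CI -0.31 to -0.01, adjusted p = 0.0979). The median of the 10 genes was -0.13, against 0.00 for all tested genes, of which 15% were lower and 13.2% higher. The SDS22-degron libraries lay below the parental ones without overlap for PRIM1, POLD1, POLE and POLE3, as for 21.9% of all tested genes. POLE (adjusted p = 0.0304) and POLE3 (adjusted p = 0.0465) were lower in untreated SDS22-degron cells when the counts were corrected for GC content, and POLE also without treated parental replicate 2 (adjusted p = 0.0449). Of all 16657 tested genes, 2884 were lower with the GC correction. Without treated parental replicate 2, 2658 of 16937 tested genes were lower.

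The 2 subunits outside the list of 10 differed from it. POLD4, the smallest subunit of polymerase delta, stood at 2.70, 2.81 and 2.3 CPM in untreated parental cells, at 5.02, 4.81 and 4.64 CPM in treated parental cells, at 2.26, 2.54 and 2.5 CPM in untreated SDS22-degron cells and at 4.95, 5.57 and 4.85 CPM in treated SDS22-degron cells. Dox/IAA thus raised it in both lines without overlap, 2.10-fold in SDS22-degron cells (log2 fold change 1.07, SE 0.161, adjusted p = 2.1e-05) and 1.85-fold in parental cells (log2 fold change 0.89, SE 0.164, adjusted p = 0.000544). The interaction was 0.19 (95% CI -0.30 to 0.67, adjusted p = 0.672). POLD4 overlaps RAD9A on the opposite strand, which had 3619 counts over all libraries against 580 for POLD4.

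POLE4, the histone-fold partner of POLE3 in polymerase epsilon, stood at 8.01, 7.57 and 7.65 CPM in untreated parental cells, at 9.06, 8.99 and 8.41 CPM in treated parental cells, at 8.45, 9.07 and 9.78 CPM in untreated SDS22-degron cells and at 11.8, 10.4 and 10.9 CPM in treated SDS22-degron cells. It was 1.21-fold higher with Dox/IAA in SDS22-degron cells (log2 fold change 0.28, SE 0.110, adjusted p = 0.0407), and the log2 fold change in parental cells was 0.19 (SE 0.117, adjusted p = 0.237). The call in SDS22-degron cells was lost in 11 of 23 alternatives, with an adjusted p of up to 0.160 without treated SDS22-degron replicate 1. POLE3 and POLE4 thus changed in opposite directions in these cells, and of the 2 calls that of POLE3 held under all 23 alternatives.

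**Figure D3:**
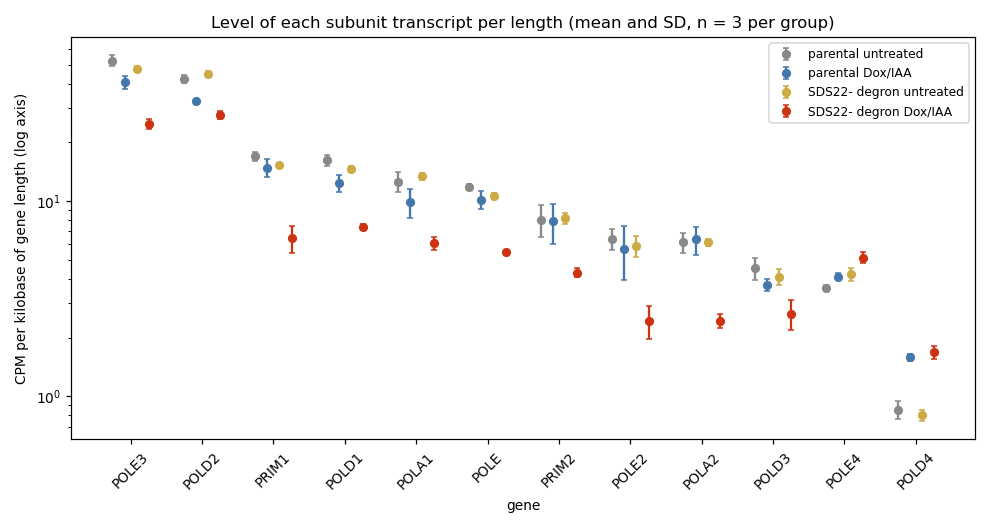
CPM per kilobase of gene length (log axis) for each subunit gene in the 4 conditions; points are means and bars SD (n = 3). POLE3 and POLD2 are highest in every condition, and POLD4 is lowest.

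Levels of different genes were compared only per kilobase of the gene length given in the deposited table, and the order depends on that length. In untreated parental cells, POLE3 was highest at 52.4 ± 3.32 CPM per kb (SD, n = 3), followed by POLD2 at 42.3 ± 1.95, PRIM1 at 16.95 ± 0.921, POLD1 at 16.2 ± 1.07, POLA1 at 12.6 ± 1.46, POLE at 11.8 ± 0.427, PRIM2 at 8.03 ± 1.5, POLE2 at 6.41 ± 0.771, POLA2 at 6.16 ± 0.724 and POLD3 at 4.53 ± 0.578 CPM per kb. The libraries of PRIM1 and POLD1, of POLA1 and POLE, of PRIM2 and POLE2, and of POLE2 and POLA2 overlapped, so that these neighbours did not differ beyond their spread. In treated SDS22-degron cells, POLD2 was at 27.6 ± 1.17 CPM per kb, above POLE3 at 24.9 ± 1.42 and without overlap. POLD1 and PRIM1, PRIM1 and POLA1, POLD3 and POLA2, and POLA2 and POLE2 overlapped there, with POLA2 and POLE2 at 2.44 ± 0.213 and 2.44 ± 0.460 CPM per kb. POLD3 was at 2.65 ± 0.457 CPM per kb. These 3 genes were the lowest of the 10 in these cells and did not differ beyond their spread, whereas POLD2 was the highest.

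The balance of transcripts within a complex was described by ratios of levels per kilobase, which were chosen after the values were seen and were not tested. The ratio of POLA2 to POLA1 was 0.386 to 0.421 in treated SDS22-degron cells and 0.595 to 0.698 in treated parental cells, with 0.449 to 0.538 over the untreated libraries of both lines. The ratio of POLD2 to POLD1 was 3.60 to 3.79 in treated SDS22-degron cells, and 2.45 to 2.85 in treated parental cells. It already differed between the untreated lines, with 2.92 to 3.18 in SDS22-degron and 2.56 to 2.70 in parental cells. In polymerase epsilon, the ratio of POLE2 to POLE was 0.378 to 0.549 in treated SDS22-degron cells and 0.427 to 0.667 in treated parental cells, which overlap. The ratio of POLD4 to POLD1 was at most 0.0593 in untreated and 0.213 to 0.245 in treated SDS22-degron cells, and 0.0468 to 0.0582 in untreated and 0.115 to 0.146 in treated parental cells. The ratio of POLE4 to POLE was 0.365 to 0.418 in untreated and 0.864 to 1.02 in treated SDS22-degron cells, and 0.296 to 0.313 in untreated and 0.366 to 0.446 in treated parental cells. Both ratios were thus higher in treated cells of both lines.

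The 10 genes also varied together among replicates. All 10 were above their group mean in untreated parental replicate 2 (median deviation 0.12 on the log2 scale) and in treated parental replicate 2 (0.17), and 0 were above it in untreated parental replicate 3 and in treated parental replicates 1 and 3. In treated SDS22-degron replicate 1, 9 of the 10 were above it. Across all 12 libraries, the 45 pairs of these genes had a Pearson r of log2 CPM between 0.77 and 0.99 (median 0.93), and the deviations from the group means had an r between 0.22 and 0.91 (median 0.65). These values are descriptive, since the pairs share their libraries and normalization. The summed level of 9 proliferation genes (MKI67, CCNA2, CCNB1, CDK1, TYMS, RRM2, CCNE1, CCNE2 and E2F1) was also highest in replicate 2 of both parental conditions, with 2278 CPM against 1889 and 1935 CPM in untreated cells and 2163 CPM against 1564 and 1630 CPM in treated cells.

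**Figure D4:**
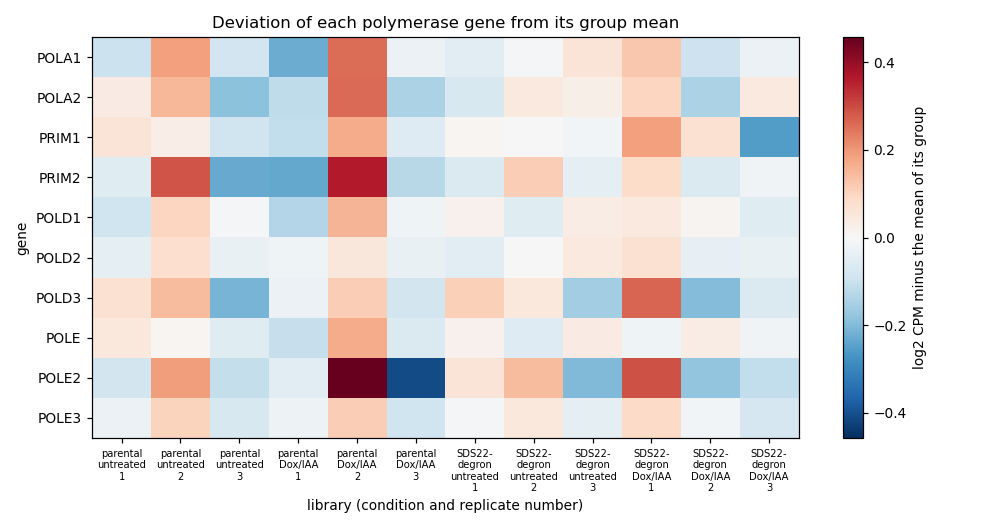
Deviation of each gene (rows) in each library (columns) from the mean of its condition, in log2 CPM (colour scale). Replicate 2 of both parental conditions is above the mean for all 10 genes, most for POLE2 in treated cells.

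Of all genes with a mean of at least 10 CPM (10841 compared), those with the most similar profile over the 12 libraries were PTGES3P1, CCT5 and LDHAP4 for POLA1 (r = 0.993, 0.993 and 0.992), TCOF1, LSM4 and XRCC6P2 for POLD1 (r = 0.996, 0.993 and 0.992), and MYO19, METTL1 and WDR77 for POLE (r = 0.992, 0.990 and 0.990). The profiles are dominated by the differences between 4 conditions, and 3 of these 9 genes carry pseudogene symbols, whose reads can be shared with their parent genes.

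The factors that work beside each polymerase were described with the same counts. Of all tested genes, 25.5% were lower in SDS22-degron cells, 15.7% were lower in parental cells and 8.35% had a negative interaction that passed. The counts below stand beside these shares. Of the genes around polymerase epsilon, that is the CMG helicase (MCM2 to MCM7, CDC45 and GINS1 to GINS4) and the clamp loader subunits CHTF18, CHTF8 and DSCC1, 13 of 14 were lower with Dox/IAA in SDS22-degron cells (median -1.20), 5 were lower in parental cells (median -0.22), and 13 had a negative interaction that passed the test. MCM7 (interaction -0.93, adjusted p = 3.1e-05) and MCM4 (-1.15, adjusted p = 7.3e-05), helicase subunits, had the smallest p. Of the partners of polymerase delta, which are PCNA, its loader RFC1 to RFC5, POLDIP2, POLDIP3, FEN1 and LIG1, 9 of 10 were lower in SDS22-degron cells (median -0.77), 5 in parental cells (median -0.22), and 7 had a negative interaction that passed. FEN1, the flap endonuclease of Okazaki fragment processing (-1.26, adjusted p = 5.3e-05), and RFC4, a subunit of the clamp loader (-1.04, adjusted p = 8.9e-05), led here.

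The partners of polymerase alpha were divided. Of WDHD1, MCM10, CTC1, STN1 and TEN1, the last was not tested, and Dox/IAA lowered 2 and raised 2 in SDS22-degron cells (median -0.36). Of all tested genes, 25.5% were lower and 26.0% higher there, and 4 genes are too few for a reading of this split. The 2 lowered genes were WDHD1, also known as AND-1, which links polymerase alpha to the helicase (log2 fold change -0.98, interaction -0.90, adjusted p = 0.000235), and MCM10, a helicase activator (log2 fold change -1.42, interaction -1.23, adjusted p = 0.000552). In parental cells, 0 of the 4 were lower and 1 was higher, beside 15.7% and 15.9% of all tested genes. Of the other fork factors (RPA1 to RPA3, CLSPN, TIMELESS, TIPIN, DNA2, RNASEH2A to RNASEH2C, TOP1 and TOP2A), 12 of 12 were lower in SDS22-degron cells (median -0.79), 4 in parental cells (median -0.20), and 8 had a negative interaction that passed. The respective shares of all tested genes were 25.5%, 15.7% and 8.35%. TOP2A, the topoisomerase that resolves intertwined DNA (-1.04, adjusted p = 6.2e-05), and RNASEH2A, the catalytic subunit of RNase H2 (-0.86, adjusted p = 6.2e-05), had the smallest p.

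**Figure D5:**
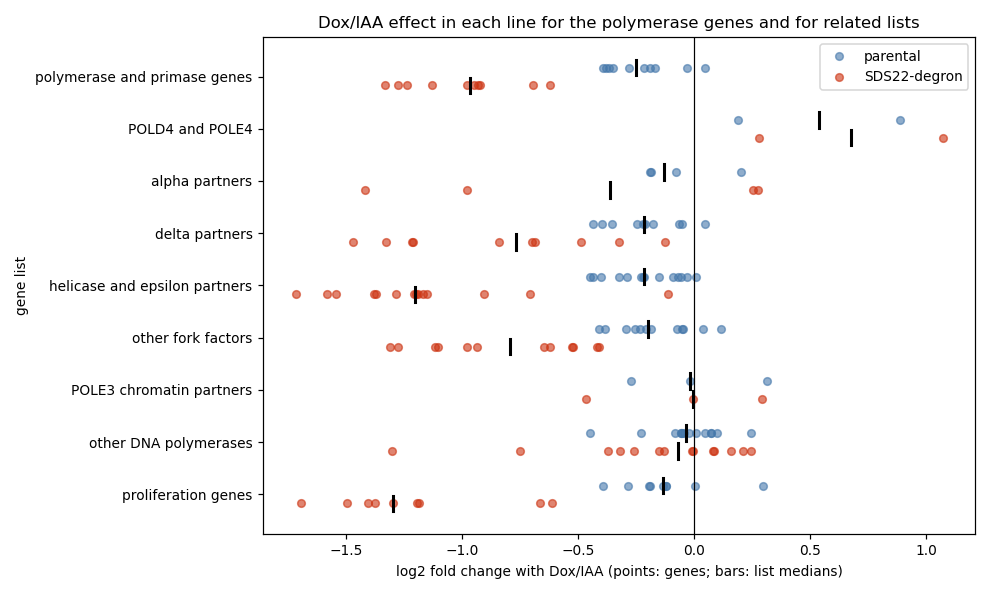
Log2 fold change with Dox/IAA in parental (blue) and SDS22-degron cells (red) for the polymerase and primase genes and for related lists; points are tested genes and bars list medians. POLD4 and POLE4 have a median of 0.68 in SDS22-degron cells. Apart from these, the partners of polymerase alpha and the chromatin partners of POLE3, the lists of fork and proliferation genes have medians between -1.30 and -0.77 there. The other DNA polymerases centre near 0 in both lines.

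Genes of the DNA polymerases of repair, translesion synthesis and mitochondria, accessory subunits among them, were set beside the replicative ones. Of 14 such genes (POLB, POLG, POLG2, POLH, POLI, POLK, POLL, POLM, POLN, POLQ, REV1, REV3L, MAD2L2 and PRIMPOL), 3 were lower and 1 was higher with Dox/IAA in SDS22-degron cells (median -0.07), 1 was lower in parental cells (median -0.04), and 1 had a negative interaction that passed. The shares of all tested genes were 25.5% lower and 26.0% higher in SDS22-degron cells, 15.7% lower in parental cells and 8.35% with a negative interaction, so that these counts lay near or under the background. The gene with the negative interaction was POLQ, the polymerase of theta-mediated end joining, with an interaction of -1.07 (adjusted p = 0.00290). The count was 2 without untreated parental replicate 2 or treated parental replicate 1, and 2 with the replicate number as a block. Of all tested genes, 1781 of 16947, 1465 of 16936 and 1730 of 16657 had a negative interaction that passed in these fits. POLG, the mitochondrial polymerase, was lower in SDS22-degron cells (log2 fold change -0.37, adjusted p = 0.000254), with an interaction of -0.29 (adjusted p = 0.0602, or 0.0155 with the block). Of the chromatin partners of POLE3, which are CHRAC1, BAZ1A and SMARCA5, 1 was lower and 1 higher in each line, beside 25.5% and 26.0% of all tested genes in SDS22-degron cells and 15.7% and 15.9% in parental cells. In the interaction, 0 had an interaction that passed in edgeR or DESeq2 (1 at an unadjusted p under 0.05, CHRAC1). CHRAC1, a histone-fold protein, fell (-0.47, adjusted p = 1.2e-05) and BAZ1A, the ACF1 subunit, rose (0.29, adjusted p = 0.00177) in SDS22-degron cells.

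The proliferation genes changed in the same direction as the polymerase genes. In SDS22-degron cells, 9 of 9 were lower with Dox/IAA (median -1.30), beside 25.5% of all tested genes. In parental cells, 1 was lower (median -0.13), beside 15.7%. A negative interaction passed the test for 8, beside 8.35%, with MKI67, the Ki-67 antigen, at -1.38 (adjusted p = 2.8e-05) and CCNB1, cyclin B1, at -1.41 (adjusted p = 5.4e-05). The summed level of the 9 genes was 796 to 957 CPM in treated SDS22-degron cells, 2245 to 2290 CPM in untreated SDS22-degron cells, 1564 to 2163 CPM in treated parental cells and 1889 to 2278 CPM in untreated parental cells. Its part in the change of the polymerase genes was not tested.

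In parental cells, the counts of these lists depended on single libraries, as did that of the polymerase genes. Without treated parental replicate 2, 7 of the fork factors, 5 of the proliferation genes and 2 of the other DNA polymerases were lower, in place of 4, 1 and 1. Of all tested genes, 2557 of 16937 were lower in that fit. Without untreated parental replicate 2, 1 of the fork factors, 2 of the partners of polymerase delta and 3 of those of polymerase epsilon were lower, in place of 4, 5 and 5. There, 2243 of 16947 tested genes were lower. Without treated parental replicate 1 or 3, 2 of the fork factors and 2 of the partners of polymerase delta were lower, and without untreated parental replicate 1 these partners numbered 3 and the proliferation genes 2. All tested genes lower in these fits were 2186 of 16936, 1962 of 16932 and 2268 of 16944, respectively. With the replicate number as a block, 2986 of all 16657 tested genes were lower in parental cells. They included 6 of the fork factors, 6 of the partners of polymerase delta and 2 of the proliferation genes. Those that then passed included TOP2A (adjusted p = 0.0247) and CCNB1 (log2 fold change -0.29, adjusted p = 0.0253).

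Markers of cell identity were checked over the same libraries. The 5 epithelial markers summed to 3279 to 3770 CPM in treated SDS22-degron cells and 2631 to 3107 CPM in treated parental cells, against 3388 to 4186 CPM and 3454 to 3838 CPM in the respective untreated cells. In each line, KRT8 and KRT18 were lower with Dox/IAA and CDH1 was higher (2 lower and 1 higher of 5), though without untreated SDS22-degron replicate 3 only 1 was lower in SDS22-degron cells. In parental cells, the call of CDH1 (log2 fold change 0.36, adjusted p = 0.04499) was lost in 9 of 23 alternatives. These were the fit of only the groups compared and the fits without untreated parental replicate 2 or 3, treated parental replicate 1 or 3, untreated SDS22-degron replicate 1, 2 or 3, or treated SDS22-degron replicate 2, and its log2 fold change was 0.20 (adjusted p = 0.207) without untreated parental replicate 2. CDH1, E-cadherin, rose in SDS22-degron cells (log2 fold change 1.00, adjusted p = 4.9e-06). The 7 markers of other cell types summed to 21.5 to 31.9 CPM and 17.2 to 23.04 CPM in treated SDS22-degron and parental cells, and to 13.8 to 15.7 CPM and 9.86 to 13.5 CPM in the untreated cells. This sum was nearly all COL1A1, a collagen gene, which rose in both lines (log2 fold change 0.94, adjusted p = 2.8e-05, and 0.81, adjusted p = 0.000749). Their part in the results above was not tested.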

How the data were processed

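Poly-A selected, stranded libraries from 12 samples were sequenced as single reads. The table that the authors deposited gives unnormalized read counts for each gene, along with its position, length and GC content in percent. The submitters' processing notes name cutadapt 1.15, Bowtie2 2.3.3.1, STAR 2.5.2b, SAMtools 1.5, featureCounts 1.5.3 and GRCh38; the annotation release and strand setting are not given in the sources used here. The number of count columns without a sample was 0.

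The 10 genes and all other lists were chosen with earlier results of these data known. Genes were filtered with filterByExpr (minimum count 10), which left 16657, normalized with TMM and fitted in edgeR 4.0.16 (R 4.3.3) with 1 mean for each of 4 groups. Comparisons used the quasi-likelihood F test, with p adjusted by Benjamini-Hochberg over all tested genes (threshold 0.05). The spread of counts was a common biological coefficient of variation of 7.48%, and the median SE (log2 scale) was 0.110 between the treated lines and 0.156 for the interaction. The procedure was also run on simulated counts, which held no effect of the replicate number, so that run does not show how the fit behaves where there is one. Correlations were taken on log2 CPM (prior count 2). Motifs were searched with Python 3.11.15.

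Named were all 10 genes, POLD4, POLE4, PPP1R7, of each other list the 2 tested genes with the smallest p in the interaction, and the 3 genes most correlated with POLA1, POLD1 and POLE. KRT8 and KRT18 and the ratios of subunits were chosen after their values were seen. The alternatives comprised DESeq2 1.42.0, the likelihood ratio test of edgeR, upper quartile factors, library size only, full-quantile normalization (limma 3.58.1, pseudocount 0.1), no filter, a stricter filter (1 CPM in every library of a group), a loess correction for GC content (span 0.3), the replicate number as a block, only the groups compared, and each library left out in turn. For counts in the other lists, these were chosen after seeing the data.

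Deviations of same-numbered libraries correlated at -0.057 to 0.246 (median 0.0946). Every pair was over 0.1 between untreated and treated parental cells (0.124, 0.246 and 0.131) and between the treated lines (0.101, 0.133 and 0.138). Between untreated and treated SDS22-degron cells, the values were 0.026, -0.009 and 0.095. These correlations are low. Each untreated parental library correlated best with its own number among treated parental and among untreated SDS22-degron libraries. So did each treated parental library among treated SDS22-degron libraries. In the other pairings of conditions, this did not hold for every number. With the number as a block, 2986 in place of 2608 tested genes were lower in parental cells. A negative interaction passed for 1730 in place of 1391. A pairing of samples by number is possible in some conditions but was not established, and the main fit held no block. The series' design text speaks of 3 independent experiments, but does not say that a number marks one.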

Additional observations from a re-analysis of the deposited data

Results flagged for a closer look

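The effect of Dox/IAA differed between the lines, by the test of the difference itself, for the following genes, each with its interaction on the log2 scale. In polymerase alpha-primase these were POLA1 (-0.78), POLA2 (-1.38), PRIM1 (-1.05) and PRIM2 (-0.89). In polymerase delta they were POLD1 (-0.59) and POLD2 (-0.31), and in polymerase epsilon POLE (-0.73), POLE2 (-1.11) and POLE3 (-0.56). Of the genes named from other lists, they were WDHD1 (-0.90) and MCM10 (-1.23) beside polymerase alpha, FEN1 (-1.26) and RFC4 (-1.04) beside polymerase delta, MCM7 (-0.93) and MCM4 (-1.15) in the helicase, TOP2A (-1.04) and RNASEH2A (-0.86) among the fork factors, POLQ (-1.07), MKI67 (-1.38), CCNB1 (-1.41) and CDH1 (0.64). The call of CDH1 (adjusted p = 0.0290) was lost without any 1 of 7 libraries, with an adjusted p of up to 0.0923: untreated parental replicates 1 and 3, treated parental replicate 2, untreated SDS22-degron replicates 1 and 3, and treated SDS22-degron replicates 2 and 3.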

How the results depend on the processing

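All 10 genes were lower with Dox/IAA in SDS22-degron cells and between the treated lines under all 23 alternatives. In all 22 alternatives of the interaction, 8 or 9 had a negative one that passed the test, with POLD2 the gene whose call was lost. With the replicate block, these counts were 10, 10 and 9, and it changed no other call of the 10 genes than that of POLD3 in parental cells. The interactions of POLD2 (-0.374 to -0.272) and POLD3 (-0.498 to -0.238) stayed negative under all 22. In parental cells, where the block gave 6 (and 2986 of all 16657 tested genes), the count of 5 ranged from 3 to 7 with 1 library left out. All tested genes lower ranged from 1962 to 2614 in those fits. Between the untreated lines, the count of 0 ranged from 0 to 1 with 1 library left out. It was 2 with the GC correction and 2 with the GC correction and the replicate block. Of all 16657 tested genes, 2884 and 3184 were lower with these corrections. The cause of the changes in these counts was not tested. Directions turned for the values that follow, none of which passed the test with all libraries in the main setting. For POLA2 between the untreated lines (-0.00), this was so under DESeq2 (0.000228), upper quartile factors (0.0326), library size only (0.0237), full-quantile normalization (0.0119), the replicate block (0.000220) and only the groups compared (0.00148), and it ranged from -0.0930 to 0.0960 with 1 library left out. PRIM2 in parental cells was 0.0283 with library size only and -0.235 to 0.131 with 1 library left out, and -0.0886 to 0.202 between the untreated lines. With 1 library left out, POLA2 in parental cells ranged from -0.0930 to 0.130, and POLE2 from -0.429 to 0.0119 there and from -0.190 to 0.0105 between the untreated lines. PPP1R7 between the untreated lines was -0.000606 with no filter, -0.0387 with the GC correction and -0.0373 with GC and block, and ranged from -0.0380 to 0.0992 there, from -0.0160 to 0.128 in parental cells and from -0.0252 to 0.153 in the interaction. Of genes in other lists, KRT19 in SDS22-degron cells was -0.00938 and -0.00923 with the GC correction without and with the block (range -0.0240 to 0.178), BAZ1A in the interaction 0.0257 and 0.0253 (range -0.115 to 0.0163), and MKI67 in parental cells 0.0568 under full-quantile normalization, while FEN1 in parental cells ranged from -0.0968 to 0.129, and between the untreated lines POLG ranged from -0.0126 to 0.0652 and CDH1 from -0.0432 to 0.297. Library size only moved the median of all genes in parental cells to 0.06.
POLE2, with the fewest counts of the 10 genes (2355 over all libraries), had the widest interval in each comparison. Small changes of it in parental cells were thus not detectable with this spread. Its treated parental libraries alone stood at 15.8, 22.5 and 12.3 CPM. The part of sequencing depth in the width of the interval was not tested.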
